A study of Mus musculus with 12 samples.

Results

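The genes that carry, receive and restrain Wnt signals were followed as mouse embryonic stem cells (ESCs) became epiblast-like cells (EpiLCs). The set was chosen by gene name and held 51 of the 51467 genes in the count table: 19 Wnt ligands, 2 genes for ligand maturation, 10 Frizzled receptors, 2 co-receptors, 4 R-spondins, 2 R-spondin receptors, 1 receptor ligase and 11 secreted antagonists. Of these, 29 passed the expression filter (3 or more CPM, reads scaled to library size, in 3 or more of 12 libraries), and because that filter also keeps genes that are high in only 1 cell type, counts over these 29 do not describe all members. By the study's methods the ESCs were V6.5 cells, with a miR-290 mCherry and miR-302 GFP reporter line described for the differentiation, and EpiLCs were derived from the ESCs. The ESCs were kept in medium with serum, LIF and 2i, where 2i is the MEK inhibitor PD0325901 plus the GSK3 inhibitor CHIR99021. EpiLCs were collected about 56 h after LIF and 2i were withdrawn. All cells of both types received 500 µM 4-thiouridine (4sU) for 30 min, and RNA was either taken whole (total libraries, read as mRNA) or captured through the 4sU label (4sU libraries, read as nascent RNA), with 3 libraries of each cell type and assay. Inhibition of GSK3 itself turns on the intracellular Wnt pathway, so the cell state and the loss of CHIR99021, PD0325901 and LIF cannot be told apart in these data.

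Wnt proteins are secreted glycoproteins that need a lipid to act. The acyltransferase PORCN adds it in the endoplasmic reticulum and WLS carries the modified ligand to the cell surface, where it bridges a Frizzled receptor and LRP5 or LRP6 and stops the destruction of β-catenin. Secreted frizzled-related proteins (SFRPs), FRZB and WIF1 bind the ligand, DKK proteins bind the co-receptor, and NOTUM removes the lipid. R-spondins, through LGR receptors, take the ligase ZNRF3 off the surface and so spare Frizzled proteins from removal. In ESCs, Wnt signals help to hold the naive state, and in the embryo Wnt3 in the epiblast and visceral endoderm is needed for the primitive streak.

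Promoter sequence was taken for every member with an entry in the RefSeq table. The table (GRCm38.p6, the assembly behind mm10) held 34 windows, from 250 bases before to 50 bases after a start, for 31 of the 51 members. Their median GC content was 66.5%, against 52.67% over 32851 windows of the same length, and the median number of CpG dinucleotides was 25.5 against 7. The windows of 7 members, ligands, receptors, the secretion gene Wls and the antagonist Sfrp2, are shown because the results turn on their RNA (Wnt11 for its motif), 5′ to 3′ on the strand of the gene, in lower case with each CpG in capitals.
Wnt3 (chr11:103773925-103774224, plus strand): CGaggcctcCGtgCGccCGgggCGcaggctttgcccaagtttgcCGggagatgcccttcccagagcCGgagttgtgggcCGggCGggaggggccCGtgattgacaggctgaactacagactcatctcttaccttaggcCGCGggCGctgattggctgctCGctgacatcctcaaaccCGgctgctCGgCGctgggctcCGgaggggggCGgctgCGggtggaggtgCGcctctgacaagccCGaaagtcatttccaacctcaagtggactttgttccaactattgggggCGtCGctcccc
Wnt4 (chr4:137277385-137277684, plus strand): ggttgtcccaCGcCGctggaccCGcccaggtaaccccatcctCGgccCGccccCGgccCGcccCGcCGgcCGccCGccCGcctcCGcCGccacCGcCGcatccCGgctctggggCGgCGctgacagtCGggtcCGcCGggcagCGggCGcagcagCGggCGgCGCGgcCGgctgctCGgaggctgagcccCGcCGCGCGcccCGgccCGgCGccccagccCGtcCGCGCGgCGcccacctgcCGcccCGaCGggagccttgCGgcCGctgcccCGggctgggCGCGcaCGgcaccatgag
Wls (chr3:159839400-159839699, plus strand): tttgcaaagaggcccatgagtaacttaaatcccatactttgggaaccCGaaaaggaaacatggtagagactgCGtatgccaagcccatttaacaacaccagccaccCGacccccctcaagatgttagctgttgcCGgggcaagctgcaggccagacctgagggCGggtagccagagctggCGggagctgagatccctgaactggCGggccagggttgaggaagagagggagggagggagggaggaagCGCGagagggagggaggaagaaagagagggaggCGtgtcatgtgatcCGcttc
Fzd5 (chr1:64737701-64738000, minus strand): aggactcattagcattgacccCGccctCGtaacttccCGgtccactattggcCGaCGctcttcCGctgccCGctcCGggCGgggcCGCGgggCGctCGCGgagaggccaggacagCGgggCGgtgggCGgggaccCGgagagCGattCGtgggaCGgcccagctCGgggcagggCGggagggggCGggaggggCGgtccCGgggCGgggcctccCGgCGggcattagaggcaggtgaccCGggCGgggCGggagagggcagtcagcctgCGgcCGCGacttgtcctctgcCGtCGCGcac
Lgr4 (chr2:109917397-109917696, plus strand): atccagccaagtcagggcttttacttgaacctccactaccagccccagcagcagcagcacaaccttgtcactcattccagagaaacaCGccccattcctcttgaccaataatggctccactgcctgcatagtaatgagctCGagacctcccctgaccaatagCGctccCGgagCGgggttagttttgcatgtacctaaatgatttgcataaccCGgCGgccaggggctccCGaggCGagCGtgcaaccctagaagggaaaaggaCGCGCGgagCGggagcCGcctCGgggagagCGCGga
Sfrp2 (chr3:83766071-83766370, plus strand): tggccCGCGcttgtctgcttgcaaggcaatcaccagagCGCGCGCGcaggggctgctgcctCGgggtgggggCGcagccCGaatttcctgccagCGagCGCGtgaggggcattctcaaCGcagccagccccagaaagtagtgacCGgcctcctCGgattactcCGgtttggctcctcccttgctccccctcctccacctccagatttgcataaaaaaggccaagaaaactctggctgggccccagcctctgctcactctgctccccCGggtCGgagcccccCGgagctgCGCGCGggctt
Wnt11 (chr7:98834862-98835161, plus strand): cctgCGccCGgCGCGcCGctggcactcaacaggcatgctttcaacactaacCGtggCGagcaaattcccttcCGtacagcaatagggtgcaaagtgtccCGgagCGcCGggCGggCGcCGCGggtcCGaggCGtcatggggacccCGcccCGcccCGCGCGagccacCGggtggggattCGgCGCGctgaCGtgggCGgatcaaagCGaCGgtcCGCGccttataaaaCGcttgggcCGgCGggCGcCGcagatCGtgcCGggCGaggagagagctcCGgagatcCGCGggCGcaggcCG
Wnt4 held 51 CpGs and a GC content of 84.3%, Wnt3 held 24 CpGs, and Wls, which rose as well, held 11. Fzd5, which fell, held 38, so windows of genes that rose lay on both sides of it. The letters CTTTGAT, a core motif of TCF/LEF factors searched on both strands, were found in 2 of the 34 windows (5.88%) and in 3.73% of all windows. The 2 were Wnt11, at position -51 from the start, and the window of Wnt5b at chr6:119449337-119449636, at position -71. In the Wnt11 window the match did not overlap the TATAAA match at position -29. TATAAA itself was found in 14.7% of member windows and 13.6% of all windows. A match describes the letters and not a bound site.

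Summed counts ran from 9300845 to 21975684 reads in the total libraries and from 3097693 to 5385644 in the 4sU libraries, so nascent values carried the larger counting error. Spearman's rho between libraries of a group was 0.970 or higher in each group. ESC replicate 3 stood apart from the other ESC libraries in both assays on the third principal component (scores of -41.5 for 4sU and -36.2 for total, against 9.50 to 28.3 for the other ESC libraries), and its values are given where a member rests on it. The labels were borne out by markers: 9 of 10 naive ESC genes fell and 6 of 6 formative genes rose in total RNA (9 and 5 without both ESC replicate 3 libraries). The study calls its replicates biological, and the labels do not say whether each came from a separate culture. The p-values measure the spread between these libraries. Fits without ESC replicate 3 hold fewer ESC libraries, and that replicate was picked from these same data.

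Among the members that passed the filter, more rose than fell. In total RNA, 14 of 29 were higher in EpiLCs, where 16.3% of the 14731 genes tested were, and 5 of 29 were lower, where 11.2% were. In nascent RNA, 11 were higher against 11.9% of all genes, and 5 were lower against 13.5%. A gene was called at a Benjamini-Hochberg adjusted p under 0.05 from limma-voom over all genes tested and an absolute log2 fold change over 1, with fold changes as EpiLC minus ESC, and every adjusted p given here is from that fit, or from the same fit without the libraries named. The median log2 fold change of the 29 members was 0.96 in total RNA and 0.57 in nascent RNA, beside 0.02 and -0.09 over all genes tested. Calls went the same way in both assays for 14 members, 5 were called in total RNA alone, and Fzd7 and Sfrp4 in nascent RNA alone. The share of all genes with such calls was not counted, so these counts do not set the members apart from other genes. The total and nascent changes share no library, but by the study's methods the RNA of labeled samples was split between the assays. Both changes also came from the same fit. Calls that go the same way in both assays are therefore not independent of each other. In bulk RNA, fewer cells of a type and less RNA per cell cannot be told apart.

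Among the ligands that passed the filter, those with the largest rises, Wnt3, Wnt8a and Wnt4, started from a level close to 0. Of 19 Wnt genes, 7 passed the filter, 5 of these were higher in EpiLC total RNA, 4 in EpiLC nascent RNA and none lower in either. Over all genes tested, 16.3% were higher and 11.2% lower in total RNA, and 11.9% and 13.5% in nascent RNA. These counts depend on the filter: Wnt3, Wnt8a and Wnt4 passed through their EpiLC libraries alone. Wnt3a, which was under it, was called lower in both assays with a filter of 1 CPM (-4.77 and -2.82). Wnt3, the ligand that starts the primitive streak (chr11:103774150-103817957), had 2, 10 and 2 reads in the ESC total libraries, or 0.116, 0.503 and 0.197 CPM, against 16.3, 11.9 and 15.8 CPM in EpiLCs. Its nascent RNA went from 0.613, 0.358 and 0.813 to 24.5, 12.3 and 14.5 CPM. The groups did not come near each other in either assay, and the log2 fold changes were 5.72 ± 0.56 (SE; adjusted p = 5.68e-07) for mRNA and 4.66 ± 0.62 (adjusted p = 2.57e-05) for nascent RNA.

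Wnt8a, a ligand of the early posterior epiblast (chr18:34542313-34548273), had the largest mRNA fold change among the members that passed the filter. Total libraries of ESCs held 1, 3 and 0 reads and those of EpiLCs 66, 70 and 81, which is 7.36, 6.63 and 8.05 CPM in EpiLCs. In the 4sU libraries, ESCs had 0, 2 and 2 reads and EpiLCs 41, 38 and 25. Every EpiLC library was above every ESC library. With so few reads in ESCs the size of the change is loosely set: the log2 fold change was 6.34 ± 0.54 in mRNA (adjusted p = 1.31e-07) and 4.76 ± 0.56 in nascent RNA (adjusted p = 7.41e-06).

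Wnt4, best known from kidney and gonad formation (chr4:137277489-137299726), followed the same course. Its ESC total libraries gave 0.290, 0.151 and 0.295 CPM and its EpiLC total libraries 11.05, 7.30 and 8.15. The 4sU libraries gave 0.409, 0.358 and 0 CPM in ESCs and 8.72, 5.72 and 6.53 in EpiLCs. The change was 5.07 ± 0.46 for mRNA (adjusted p = 2.3e-07) and 4.47 ± 0.58 for nascent RNA (adjusted p = 1.74e-05), again with no overlap.

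Wnt9a and Wnt7b were already present in ESCs. Wnt9a rose from 1.97, 1.76 and 2.85 to 8.03, 12.98 and 6.96 CPM in total RNA, a log2 fold change of 2.13 ± 0.29 (adjusted p = 1.41e-05). Nascent Wnt9a rose from 3.07, 1.25 and 2.98 to 12.02, 13.1 and 9.49 CPM (2.37 ± 0.43, adjusted p = 0.000391). The EpiLC libraries spread more than for Wnt4, but none reached the ESC range. Wnt7b mRNA was 1.33, 1.41 and 2.95 CPM in ESCs and 4.46, 3.60 and 3.18 in EpiLCs (1.17 ± 0.31, adjusted p = 0.00474), and its nascent RNA, at 1.23, 1.25 and 3.25 CPM in ESCs and 4.24, 1.91 and 3.56 in EpiLCs, overlapped and was not called (adjusted p = 0.168). ESC replicate 3 was the highest ESC library for Wnt7b, 2.15 times the mean of the other ESC total libraries. Without both ESC replicate 3 libraries the change was 1.41 ± 0.27 in mRNA and 1.20 ± 0.45 in nascent RNA (adjusted p = 0.029), past both thresholds. The mRNA call was lost with DESeq2 (0.9941) and without ESC total replicate 1 (0.972), both under the fold threshold.

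Wnt11 and Wnt5b, ligands linked mainly to β-catenin-independent signaling and cell movement, passed the filter and were not called. Wnt11 mRNA lay at 1.18 to 2.43 CPM in ESCs and 3.28 to 4.13 in EpiLCs, with a log2 fold change of 0.90 ± 0.25 that had an adjusted p of 0.00569 but stayed under the fold threshold. Wnt5b lay at 3.74 to 9.27 and 7.67 to 9.34 CPM (0.22 ± 0.26, adjusted p = 0.467), and its lowest value was ESC replicate 3.

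The remaining 12 ligands stayed under the filter. Wnt3a, the ligand most often added to ESC cultures, had fewer reads in EpiLCs: its total reads were 62, 65 and 29 in ESCs and 1, 0 and 2 in EpiLCs, a ratio of ESC to EpiLC CPM of 32.5 (95% interval 10.9 to 159), and the ratio in 4sU RNA was 6.38 (95% interval 1.92 to 33.3). These intervals are exact and cover counting error only. Wnt10b had 1, 1 and 0 total reads in ESCs and 14, 12 and 12 in EpiLCs, a ratio of 30.4 (95% interval 7.85 to 260.0) in favor of EpiLCs, with 0, 1 and 2 reads in ESC and 1, 3 and 3 in EpiLC 4sU libraries. Wnt9b was higher in EpiLC total RNA with 27 reads against 1, a ratio of 43.2 (95% interval 7.12 to 1768). Wnt16 had 18 against 3, a ratio of 9.60 (95% interval 2.80 to 50.9). No ESC total library held a read of Wnt2b or Wnt2. With the ESC group set to a floor of 3 reads, the ratios of EpiLC to ESC were 9.65 and 5.11, from 17 and 9 EpiLC reads. These floor ratios use library totals without TMM scaling and leave out the counting error of the EpiLC reads. In 4sU RNA, Wnt2b had 10 reads in EpiLCs against 3 in ESCs, a ratio of 3.83 (95% interval 0.986 to 21.65). Wnt6 lay at 0.491 to 1.27 CPM in ESC and 1.61 to 3.01 in EpiLC total RNA. Wnt10a, Wnt5a, Wnt7a and Wnt8b stayed at or under 1.00 CPM in every total library, and Wnt1 had 0 reads in all 12 libraries. For a gene of 0 reads, 3 reads of a library total is the limit that the depth allows.

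**Figure D1:**
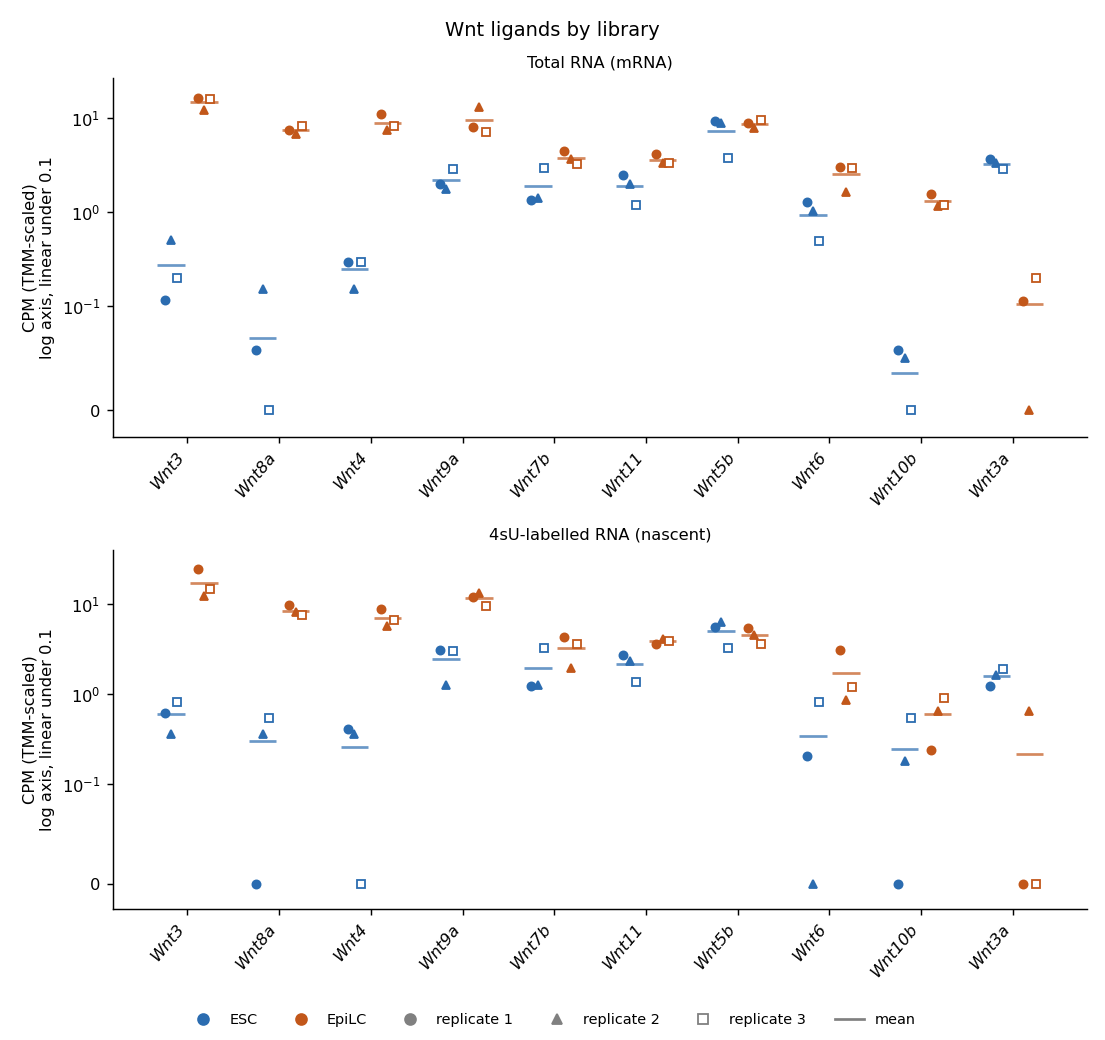
CPM (TMM-scaled, log axis that is linear under 0.1) of 10 Wnt ligands in each total (top) and 4sU (bottom) library, with ESC points in blue, EpiLC points in orange, 1 symbol per replicate number and a line at the mean of 3 libraries. Wnt3, Wnt8a and Wnt4 sit under 1 CPM in every ESC library and at 5.72 CPM or more in every EpiLC library, and Wnt3a goes the other way.

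Per kilobase of exon, which allows genes to be compared, the ligand repertoire changed its order. In ESC total RNA, Wnt5b stood first at 2.73 ± 1.15 CPM per kb (SD, n = 3) and Wnt3a next at 1.17 ± 0.135, and these levels did not overlap. In EpiLC total RNA, Wnt3 at 4.77 ± 0.775 and Wnt8a at 4.21 ± 0.406 CPM per kb led and overlapped each other, both above Wnt5b at 3.23 ± 0.317. Wnt9a at 2.80 ± 0.965 and Wnt4 at 2.11 ± 0.469 came after, each overlapping its neighbor in the order. Summed over the 19 ligands, total RNA rose from 7.40, 7.03 and 4.94 to 23.1, 20.3 and 22.1 CPM per kb, and 4sU RNA from 5.57, 5.24 and 5.43 to 25.5, 19.2 and 19.0.

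Ligand genes that lie side by side in the genome did not all move together. Wnt3a and Wnt9a, on opposite strands of chromosome 11 with 16175 bases between them, differed in direction, Wnt3a being lower and Wnt9a higher in EpiLCs. Wnt9b and Wnt3, also on chromosome 11 and 24328 bases apart, were both higher in EpiLCs, with Wnt9b at 0.569 to 1.29 and Wnt3 at 11.9 to 16.3 CPM. Wnt10b and Wnt1 on chromosome 15 (11706 bases apart) differed in that only the first was detected. Wnt6 and Wnt10a on chromosome 1 (6193 bases apart, same strand) were at 1.61 to 3.01 and 0.298 to 0.379 CPM in EpiLCs.

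The 2 genes that ready Wnt ligands for secretion went in opposite directions in total RNA. Wls, the cargo receptor (chr3:159839672-159938664), rose from 19.5, 18.5 and 25.1 to 108, 93.0 and 100.2 CPM, and its nascent RNA from 11.4, 9.12 and 11.4 to 44.1, 36.0 and 50.1. The lowest EpiLC library was well above the highest ESC library in both, with log2 fold changes of 2.29 ± 0.12 (adjusted p = 7.37e-10) and 2.01 ± 0.21 (adjusted p = 2.31e-06). Porcn, the acyltransferase (chrX:8193848-8206525), fell from 34.3, 37.1 and 11.4 to 7.03, 5.12 and 6.66 CPM in total RNA (-2.07 ± 0.51, adjusted p = 0.00243). Nascent Porcn was 11.4, 16.3 and 2.44 CPM in ESCs and 6.60, 5.09 and 6.82 in EpiLCs and was not called (-0.52 ± 0.86, adjusted p = 0.638).

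Much of the spread of Porcn came from 1 pair of libraries. ESC replicate 3 held 0.319 of the mean of the other ESC libraries in total RNA and 0.176 in 4sU RNA, so that it fell below the EpiLC range in 4sU RNA but not in total RNA. Without both ESC replicate 3 libraries, the change of Porcn was -2.53 ± 0.14 in mRNA (adjusted p = 8.73e-12) and -1.20 ± 0.24 in nascent RNA (adjusted p = 0.000325), both called. That fit holds fewer ESC libraries, and the replicate was singled out in these same data. Leaving out the outlying values narrows the spread by itself, so the smaller SEs and adjusted p-values are no added support. What set ESC replicate 3 apart was not tested.

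The 10 Frizzled receptors, which bind Wnt through a cysteine-rich domain, all passed the filter, and their order changed between the cell types. In total RNA 5 rose (Fzd1, Fzd2, Fzd3, Fzd6 and Fzd8), Fzd5 fell and 4 were not called. In nascent RNA 4 rose (Fzd2, Fzd3, Fzd6 and, at the fold threshold, Fzd7) and Fzd5 fell. Of all genes tested, 16.3% were higher and 11.2% lower in total RNA, and 11.9% and 13.5% in nascent RNA. Fzd5 (chr1:64730558-64737751) was at 221, 229 and 224 CPM in ESC and 46.5, 46.2 and 49.3 in EpiLC total libraries, and at 476, 600.4 and 389 in ESCs and 92.8, 75.7 and 85.5 in EpiLCs in the 4sU libraries. No EpiLC library came near an ESC library, and Fzd5 was 4.74-fold lower in mRNA (-2.24 ± 0.13, adjusted p = 2.21e-09) and 5.73-fold lower in nascent RNA (-2.52 ± 0.14, adjusted p = 4.19e-09).

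Fzd2 (chr11:102604396-102608058) moved most among the receptors that rose. Total libraries held 14.3, 13.8 and 20.3 CPM in ESCs and 101, 98.2 and 102 in EpiLCs (2.70 ± 0.13, adjusted p = 4.52e-10). The 4sU libraries held 7.16, 6.44 and 9.76 CPM in ESCs and 92.1, 67.6 and 83.4 in EpiLCs (3.40 ± 0.24, adjusted p = 6.39e-08). This is 6.51-fold in mRNA and 10.6-fold in nascent RNA, and the difference between the 2 changes did not pass the test (adjusted p = 0.147).

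Fzd6 and Fzd3, receptors with known parts in planar cell polarity and axon growth, rose by similar amounts. Fzd6 went from 6.90, 9.61 and 13.4 to 42.5, 44.7 and 48.4 CPM in total and from 12.9, 14.5 and 20.9 to 53.7, 49.4 and 67.4 in 4sU RNA. Its log2 fold changes were 2.29 ± 0.18 (adjusted p = 5.27e-08) and 1.85 ± 0.23 (adjusted p = 1.19e-05). Fzd3 went from 11.3, 12.3 and 16.1 to 43.2, 47.0 and 45.7 CPM and from 15.1, 16.5 and 13.6 to 40.3, 45.1 and 44.8 (1.83 ± 0.11, adjusted p = 4.27e-09; 1.51 ± 0.16, adjusted p = 2.57e-06). For both, each EpiLC library was above each ESC library in both assays.

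Fzd8 and Fzd1 rose less, and the call was limited to total RNA. Fzd8 total RNA was 6.49, 5.94 and 5.41 CPM in ESCs and 12.6, 13.7 and 13.6 in EpiLCs (1.15 ± 0.13, adjusted p = 1.74e-06). Nascent Fzd8 was 13.7, 17.2 and 14.9 CPM in ESCs and 26.4, 24.4 and 27.9 in EpiLCs, a change of 0.76 ± 0.14 that was under the fold threshold (adjusted p = 0.000359). Fzd1 total RNA was 4.06, 4.68 and 3.64 CPM in ESCs and 10.6, 8.34 and 7.85 in EpiLCs (1.07 ± 0.16, adjusted p = 4.75e-05), close to the fold threshold, which it missed without EpiLC total replicate 1 (0.95) and without both ESC replicate 3 libraries (0.9955). Nascent Fzd1, at 9.20, 11.99 and 11.1 CPM in ESCs and 14.6, 13.1 and 13.6 in EpiLCs, did not overlap but was not called (adjusted p = 0.122).

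Fzd7, a main Frizzled of human pluripotent cells, sat at the threshold. Its total RNA was 71.8, 68.1 and 37.3 CPM in ESCs and 107, 115 and 115 in EpiLCs (0.96 ± 0.31, adjusted p = 0.0154), and its nascent RNA 154, 165 and 50.4 CPM in ESCs and 215, 225 and 237 in EpiLCs (1.00 ± 0.33, adjusted p = 0.019). EpiLC libraries were above ESC libraries throughout, and the third ESC library was far below the other two. Without both ESC replicate 3 libraries the change was 0.68 ± 0.07 in mRNA (adjusted p = 2.31e-08) and 0.47 ± 0.07 in nascent RNA (adjusted p = 1.43e-05), so the nascent call was lost on its size.

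Fzd10 too was lowest among ESC libraries in replicate 3. It lay at 71.8, 64.3 and 38.0 CPM in ESC and 40.9, 28.5 and 34.5 in EpiLC total RNA, which overlapped and gave no call (-0.74 ± 0.33, adjusted p = 0.0616). Leaving out both ESC replicate 3 libraries gave -1.004 ± 0.14 (adjusted p = 2.04e-06), past both thresholds. In 4sU RNA the ranges were 43.1 to 123 and 78.6 to 126 CPM (0.11 ± 0.34).

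Fzd4 and Fzd9 were not called. Fzd4 mRNA was at 10.6 to 12.9 CPM in ESCs and 10.4 to 12.3 in EpiLCs (-0.02 ± 0.14), while its nascent RNA was 28.6 to 36.1 CPM in ESCs and 16.3 to 19.1 in EpiLCs, without overlap but under the fold threshold (-0.85 ± 0.15, adjusted p = 0.000359). Fzd9 lay at 7.90 to 12.98 and 6.06 to 9.57 CPM in total RNA (-0.19 ± 0.23, adjusted p = 0.481) and had a nascent change of -0.94 ± 0.39 (adjusted p = 0.0559).

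**Figure D2:**
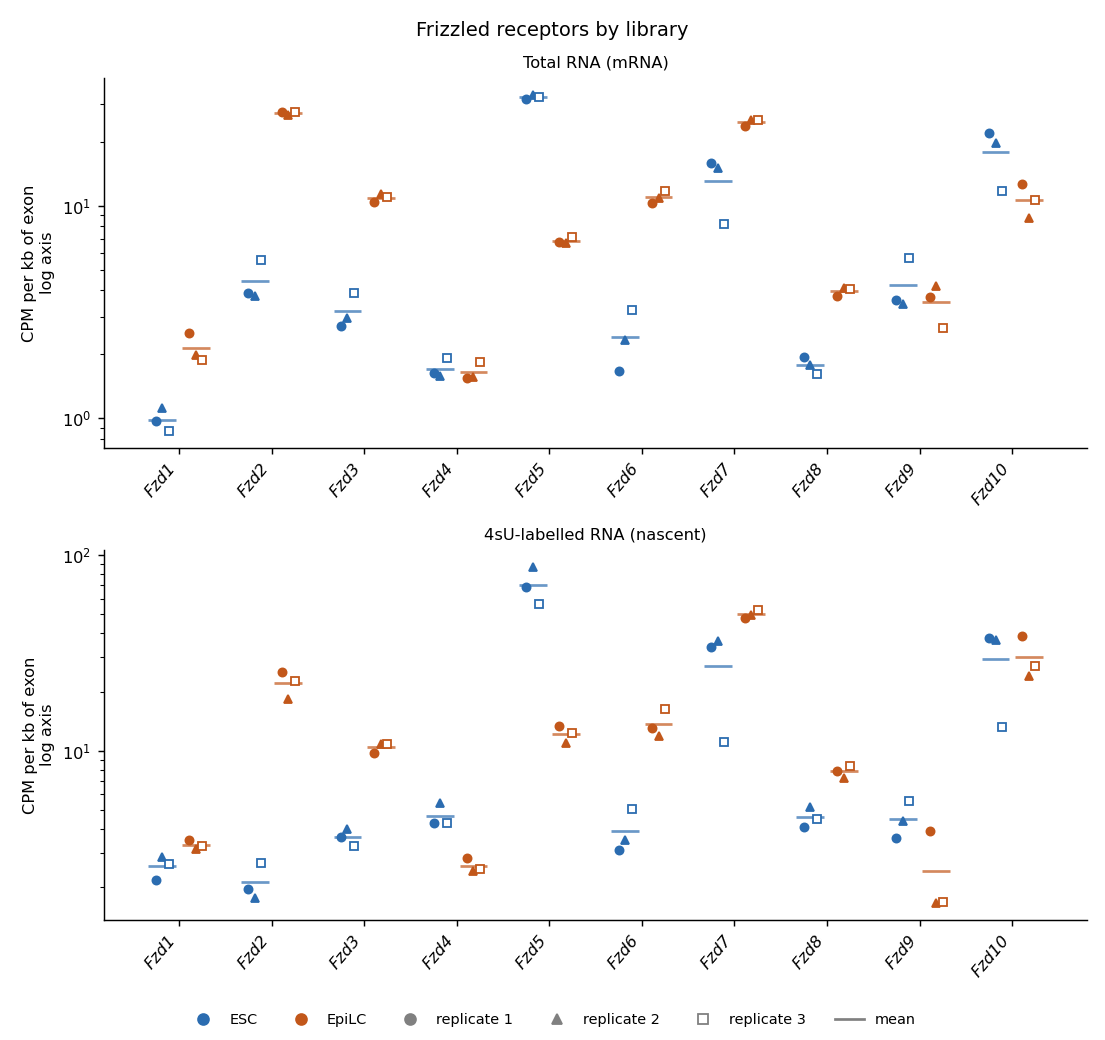
Level of each Frizzled receptor in CPM per kb of exon (log axis) by total (top) and 4sU (bottom) library, ESC in blue and EpiLC in orange, 1 symbol per replicate number, with a line at the mean of 3. Fzd5 leads in ESCs and Fzd2 and Fzd7 in EpiLC total RNA, and the open squares show ESC replicate 3 below the other ESC libraries for Fzd7 and Fzd10.

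Put per kilobase of exon, Fzd5 led in ESCs in both assays, and the leader in EpiLCs differed between assays. Fzd5 in ESC total RNA was at 32.5 ± 0.597 CPM per kb (SD, n = 3), which was 39.7% ± 3.11 of the summed Frizzled level. Fzd10 at 17.9 ± 5.46 and Fzd7 at 13.03 ± 4.19 came next and overlapped each other, and Fzd2 followed at 4.39 ± 0.984, apart from Fzd7. Below Fzd2, the genes Fzd9, Fzd3, Fzd6, Fzd8 and Fzd4 each overlapped the one before in the order. Fzd1 was lowest at 0.983 ± 0.125, apart from Fzd4. In EpiLC total RNA, Fzd2 was first at 27.4 ± 0.519 CPM per kb (26.7% ± 0.240 of the sum) and Fzd7 second at 24.8 ± 0.957, with no overlap. Fzd6, Fzd3 and Fzd10 followed at 10.9 ± 0.721, 10.9 ± 0.468 and 10.7 ± 1.91 and could not be ordered, and Fzd5 had come down to sixth at 6.85 ± 0.245. The sum over the 10 receptors went from 86.3, 84.9 and 75.0 to 103, 101 and 104 CPM per kb in total RNA. By fold this was less than most of its parts, but not less than Fzd4 or Fzd9. In 4sU RNA, Fzd5 led in ESCs at 70.6 ± 15.4 CPM per kb, and in EpiLCs Fzd7 led alone at 49.8 ± 2.39, above Fzd10 at 30.0 ± 7.66 and Fzd2 at 22.1 ± 3.39, which overlapped each other. The 4sU sums of the cell types overlapped (153 ± 40.3 and 154 ± 12.8).

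The co-receptors Lrp5 and Lrp6 were abundant in both states and were not called in either assay. Lrp5 lay at 82.6 to 93.8 CPM in ESC and 128 to 143 in EpiLC total RNA (0.61 ± 0.09, adjusted p = 4.51e-05), and Lrp6 at 175 to 206 and 231 to 249 (0.35 ± 0.08, adjusted p = 0.000946). Both adjusted p-values passed, both changes were under the fold threshold, and neither pair of groups overlapped. Nascent changes were 0.20 ± 0.12 for Lrp5 (adjusted p = 0.192) and 0.34 ± 0.08 for Lrp6 (adjusted p = 0.00294).

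On the R-spondin side, the receptor Lgr4 was the strong member. Lgr4 (chr2:109917647-110014257) rose from 124, 117 and 96.1 to 383, 371 and 368 CPM in total RNA and from 119.6, 115 and 71.0 to 367, 349 and 355 in 4sU RNA. Its EpiLC libraries stood clear of its ESC libraries, with changes of 1.74 ± 0.13 (adjusted p = 3.82e-08) and 1.82 ± 0.15 (adjusted p = 2.38e-07). Lgr5, the stem cell marker of the gut, was under the filter: no ESC total library held a read and EpiLC total libraries held 5, 6 and 5. With the floor of 3 reads for ESCs the ratio was 9.08, without the counting error of the EpiLC reads. In 4sU RNA it had 14 reads in EpiLCs against 1 in ESCs, a ratio of 16.1 (95% interval 2.45 to 680.1).

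Among the R-spondins themselves only Rspo1 passed the filter. Rspo1 went from 1.45, 1.56 and 1.97 to 5.58, 5.02 and 5.77 CPM in total RNA (1.75 ± 0.20, adjusted p = 3.27e-06). Nascent Rspo1 was 1.43, 1.43 and 1.36 CPM in ESCs and 2.36, 1.48 and 2.97 in EpiLCs, from 5 to 10 reads per library, and was not called (adjusted p = 0.216). Rspo3 lay at 0.174 to 0.352 and 0.758 to 1.00 CPM in total RNA, Rspo4 at 0.0503 to 0.295 and 0.669 to 0.948, and neither overlapped, while Rspo2 did (0.151 to 0.491 and 0 to 0.223). The ligase Znrf3, which R-spondins act on, was not called, at 24.8 to 29.7 CPM in ESC and 32.3 to 33.4 in EpiLC total RNA (0.27 ± 0.15, adjusted p = 0.127).

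Of the 11 secreted antagonists, 5 passed the filter, and in total RNA Sfrp1, Dkk3 and Notum fell and Sfrp2 rose (over all genes, 11.2% were lower and 16.3% higher). Among those under the filter, Frzb and Dkk2 had more reads in EpiLCs. In nascent RNA the same 4 were called in the same directions and Sfrp4 fell as well (over all genes, 13.5% were lower and 11.9% higher). Notum, the deacylase that inactivates Wnt (chr11:120653788-120660829), was at 31.5, 31.9 and 27.2 CPM in ESC and 1.45, 0.474 and 1.79 in EpiLC total RNA. Its change of -4.77 ± 0.37 (adjusted p = 4.36e-08), 27.4-fold, was the largest fall in mRNA among the 29 members that passed the filter. The 4sU libraries held 44, 74 and 48 reads in ESCs and 1, 2 and 0 in EpiLCs, so the ratio of 48.2 (95% interval 16.2 to 236) is known only within wide limits (adjusted p = 1.01e-05). Notum is itself a known target of Wnt signaling, as background.

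Sfrp1 (chr8:23411502-23449632) was the most abundant antagonist and fell. Total libraries held 245, 254 and 413 CPM in ESCs and 75.8, 78.4 and 75.9 in EpiLCs (-1.93 ± 0.19, adjusted p = 5.2e-07). The 4sU libraries held 168, 208 and 286 CPM in ESCs and 43.8, 41.1 and 38.0 in EpiLCs (-2.38 ± 0.25, adjusted p = 2.32e-06). ESC replicate 3 was the highest ESC library, and the groups stayed apart with or without it.

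Sfrp2 (chr3:83766321-83774316), of the same family, did the reverse. It rose from 4.52, 3.83 and 2.65 to 33.7, 32.0 and 31.0 CPM in total RNA and from 7.57, 6.08 and 4.07 to 21.9, 22.0 and 22.3 in 4sU RNA. All EpiLC libraries were above all ESC libraries, with changes of 3.10 ± 0.16 (adjusted p = 8.42e-10) and 1.89 ± 0.23 (adjusted p = 9.53e-06). Sfrp4 mRNA was 7.36, 6.74 and 10.1 CPM in ESCs and 4.13, 4.93 and 4.47 in EpiLCs, under the fold threshold (-0.75 ± 0.24, adjusted p = 0.0125). Nascent Sfrp4 fell from 13.9, 15.4 and 25.2 to 5.18, 7.84 and 7.42 CPM (-1.33 ± 0.29, adjusted p = 0.00144).

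Dkk3, a divergent member of the DKK family, fell from 12.7, 15.5 and 10.5 to 2.34, 3.51 and 4.57 CPM in total RNA (-1.93 ± 0.23, adjusted p = 3.91e-06). Its nascent RNA fell from 5.93, 5.90 and 4.61 to 1.41, 1.91 and 2.37 CPM (-1.53 ± 0.43, adjusted p = 0.00852), and the nascent call was lost without EpiLC 4sU replicate 1 (adjusted p = 0.0605). The DKK genes that block LRP5 and LRP6 were close to absent. Dkk1 stayed at 0.116 to 0.302 CPM in ESC and 0.112 to 0.758 in EpiLC total RNA. Dkk2 had no read in an ESC library and 1, 4 and 6 reads in EpiLC total RNA, a ratio of 6.24 with the floor of 3 reads for ESCs. Dkk4 had at most 1 read in any library. Frzb had 34 reads in EpiLC total RNA against 1 in ESCs, a ratio of 54.4 (95% interval 9.12 to 2210.0). Sfrp5 lay at 0.805 to 1.28 CPM in ESCs and 0.335 to 0.497 in EpiLCs, without overlap, and Wif1 at 0.295 to 0.406 and 0.284 to 0.335.

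**Figure D3:**
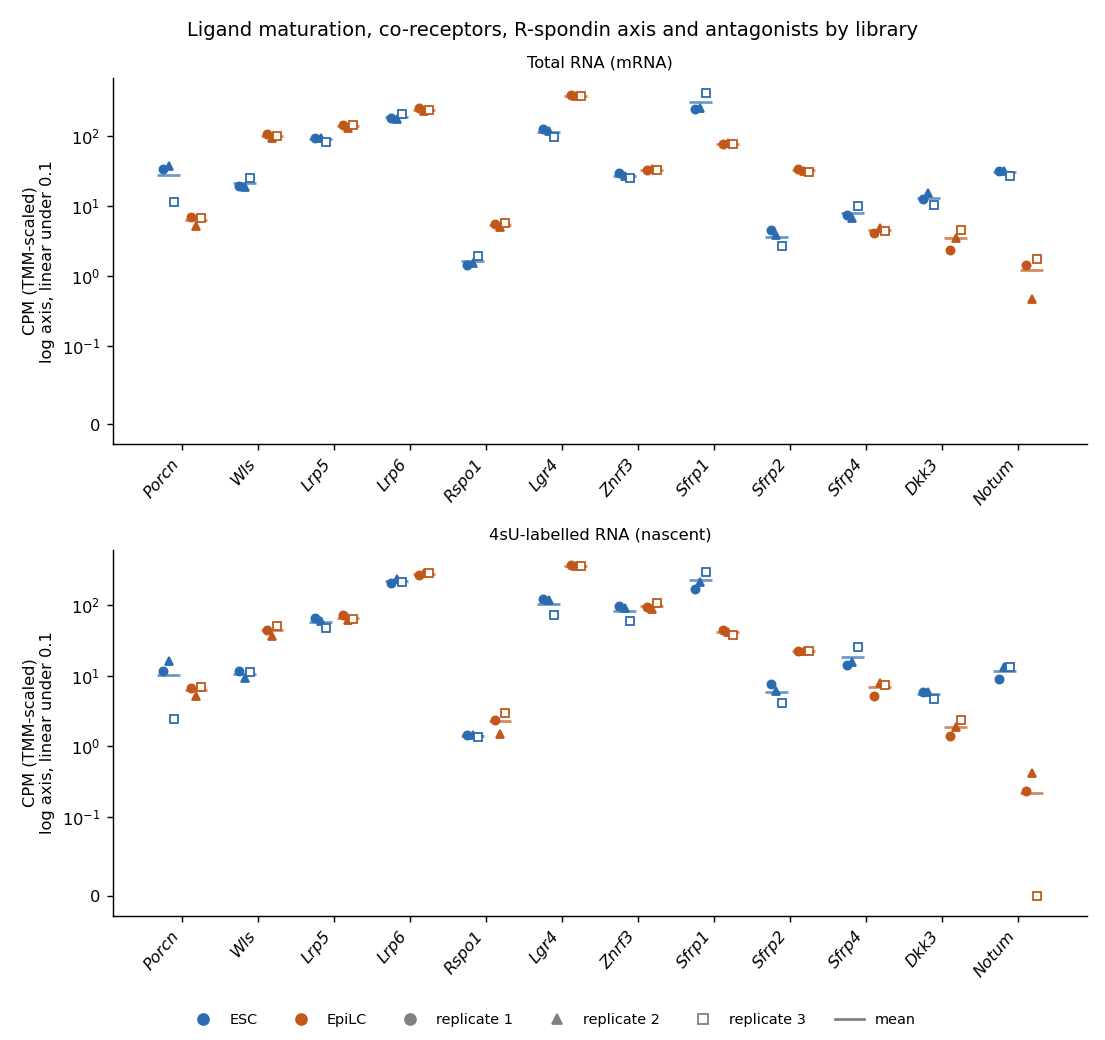
TMM-scaled CPM (log axis, linear under 0.1) in each total (top) and 4sU (bottom) library for the ligand maturation genes, co-receptors, R-spondin axis and antagonists that passed the filter, ESC in blue and EpiLC in orange, 1 symbol per replicate number, with a line at the mean of 3. Wls, Lgr4, Rspo1 and Sfrp2 are higher in every EpiLC total library, and Porcn, Sfrp1, Sfrp4, Dkk3 and Notum are lower in each.

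Per kilobase, Sfrp1 made up 75.2% ± 6.42 of the summed antagonist level in ESC total RNA, at 69.6 ± 21.6 CPM per kb, ahead of Notum at 13.4 ± 1.15. In EpiLCs, Sfrp1 at 17.5 ± 0.332 and Sfrp2 at 16.1 ± 0.676 held nearly all of it, 47.0% ± 0.656 and 43.2% ± 1.92, and did not overlap. In EpiLC 4sU RNA the order was turned, with Sfrp2 at 11.02 ± 0.0857 above Sfrp1 at 9.37 ± 0.669. The sum over the 11 antagonists went from 78.7, 81.2 and 114 CPM per kb in ESCs to 37.1, 37.5 and 37.2 in EpiLCs, while the sum over the 19 ligands went up. In each ESC total library the antagonist sum was above the ligand sum, and in each EpiLC total library as well.

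**Figure D4:**
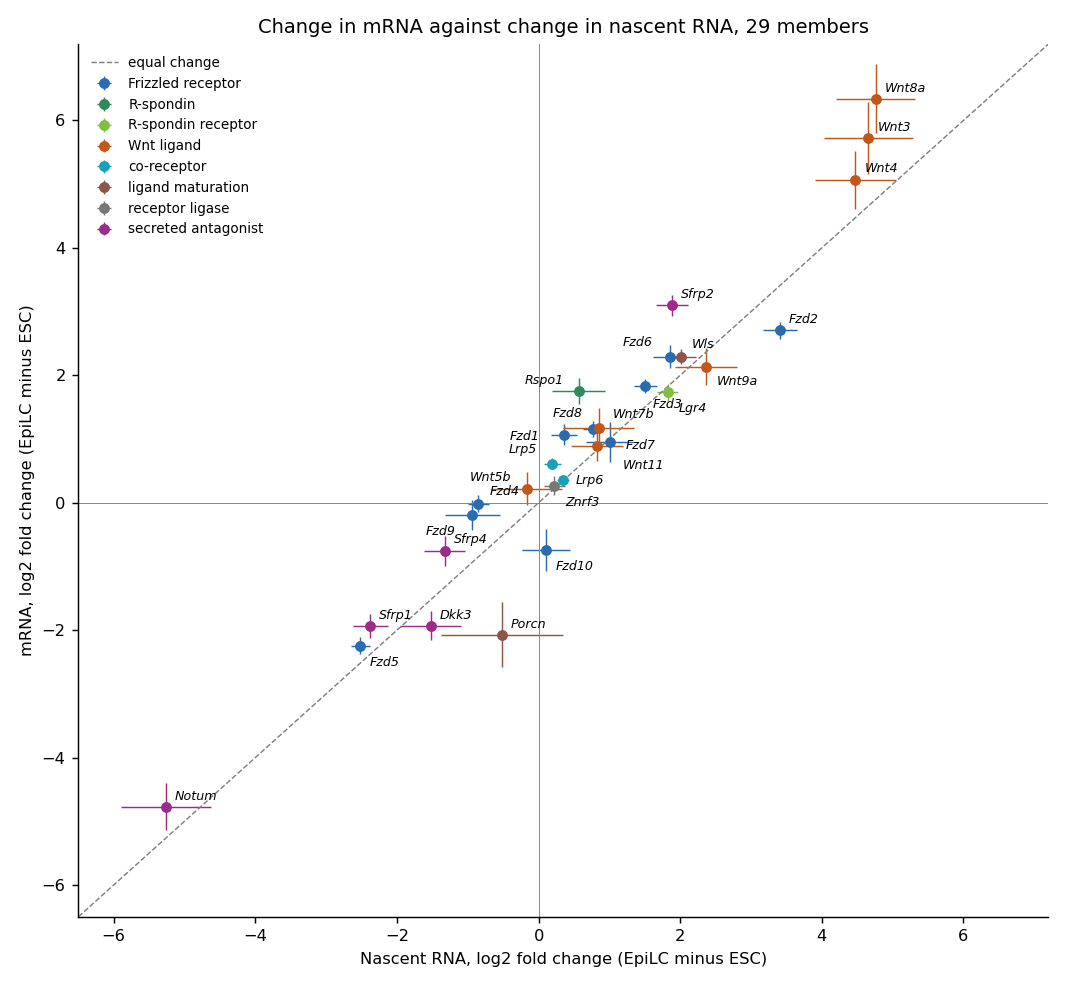
Log2 fold change (EpiLC minus ESC) of total RNA (y axis) against that of nascent RNA (x axis) for the 29 members that passed the filter, colored by role, with bars of 1 SE and a dashed line of equal change. Wnt8a, Wnt3 and Wnt4 lie at the top right and Notum at the bottom left. Sfrp2 and Porcn lie off the line.

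To ask how far these mRNA changes followed nascent RNA, the mRNA stability change of each member was taken as its mRNA change minus its nascent change. Of the 29 members, 1 was called higher, where 1.24% of all genes tested were, and 0 were called lower, where 0.305% were. The one was Sfrp2, whose mRNA rose by 1.21 ± 0.28 more than its nascent RNA on the log2 scale (adjusted p = 0.028). The call lost its adjusted p in 9 of 12 fits with 1 library left out, where the largest was 0.083, and was kept without both ESC replicate 3 libraries (1.27 ± 0.23, adjusted p = 0.00103). Fzd4 had an adjusted p of 0.0366 with a change of 0.83 ± 0.21, under the fold threshold. Porcn had a change of -1.56 ± 1.00 (adjusted p = 0.381), which became -1.33 ± 0.28 (adjusted p = 0.00291) and a call without both ESC replicate 3 libraries. The study split the RNA of labeled samples between the assays, and the main fit took no account of such pairs. In a limma-voom fit that took same-numbered libraries of a cell type as pairs, Porcn was called lower (-1.43 ± 0.28, adjusted p = 0.00783). Rspo1, at 1.18 ± 0.42 (adjusted p = 0.117), was not called. For Wnt3, Wnt8a and Wnt4, SEs of 0.74 to 0.84 left stability changes of 1.07 ± 0.84, 1.58 ± 0.78 and 0.59 ± 0.74 unresolved.

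Within a cell type, the log2 ratio of total to 4sU CPM ranks genes by relative mRNA stability. The Frizzled genes lay low, with a median over the 10 of -0.88 ± 0.29 (SD over 3 pairs of libraries) in ESCs and -0.65 ± 0.02 in EpiLCs, beside 0.04 and 0.14 over all genes tested and 0.29 and 0.37 over protein-coding genes. Fzd2 had the highest ratio of them in ESCs, at 1.03 ± 0.05, and in EpiLCs it was 0.32 ± 0.20. The antagonists had medians of 0.46 ± 0.14 and 0.69 ± 0.17 over 5 genes, where 1 ESC pair was at the protein-coding median (0.29), and spread from Sfrp4 at -1.14 ± 0.20 to Notum at 1.37 ± 0.38 in ESCs. Znrf3 was among the lowest members in both cell types, at -1.57 ± 0.27 and -1.54 ± 0.14. Sfrp2 went from -0.69 ± 0.06 to 0.54 ± 0.07. Porcn had a ratio of 1.64 ± 0.49 in ESCs, where its replicate 3 value was the highest (2.15), and in EpiLCs its ratio was 0.01 ± 0.07. Over the 29 members the medians were -0.23 ± 0.12 and 0.02 ± 0.04. The ratio ranks genes and is no absolute rate, since no spike-in read was counted that could tie 4sU to total libraries.

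**Figure D5:**
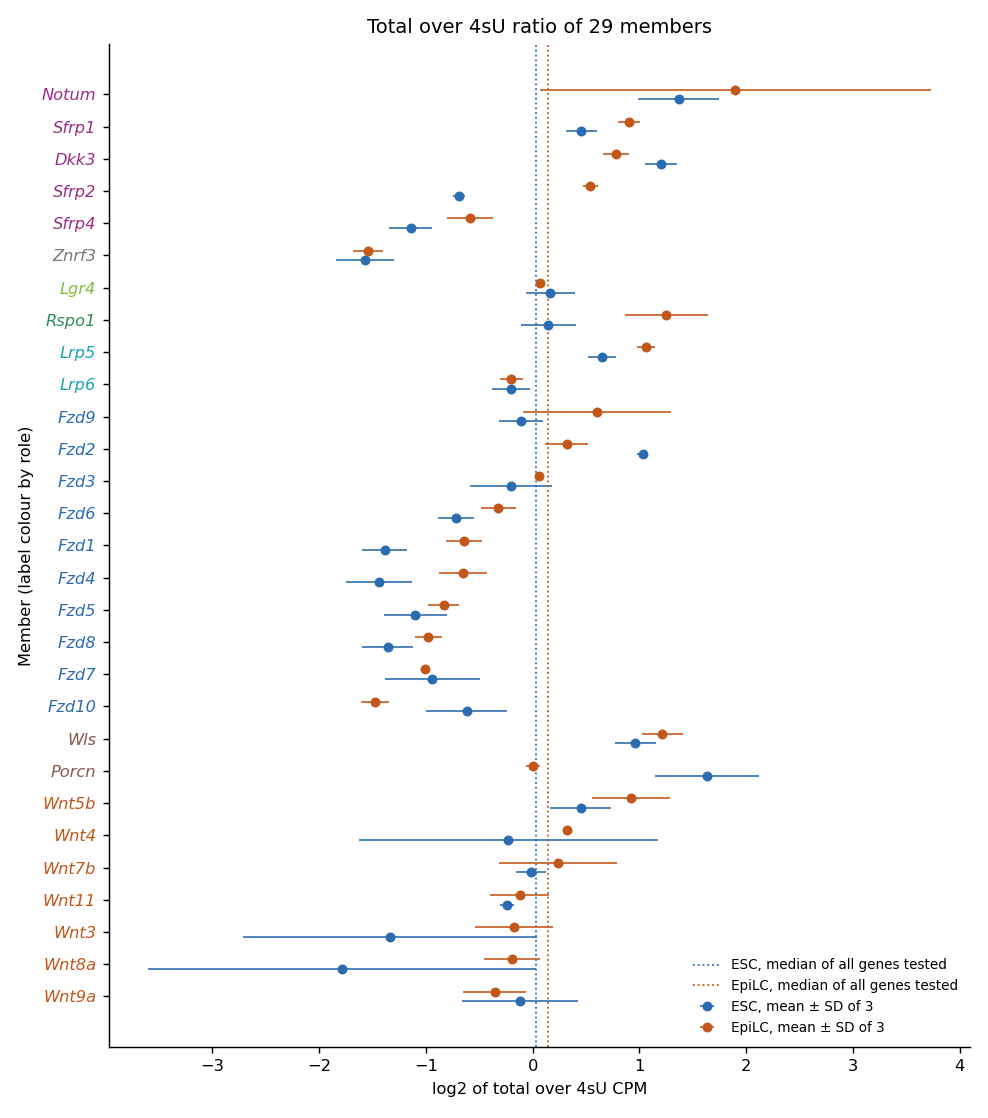
Log2 ratio of total to 4sU CPM for the 29 members that passed the filter, as the mean of 3 same-numbered pairs of libraries with bars of 1 SD, ESC in blue and EpiLC in orange. Label color gives the role and dotted lines mark the median over all genes tested in each cell type. Most Frizzled genes lie left of those medians, and the ligands that are near 0 in ESCs have wide bars there.

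Genes downstream of and beside the receptors are set against the 16.3% of all genes that were higher and the 11.2% that were lower in total RNA. Of 22 intracellular components, all of which passed the filter, 1 rose in total RNA, the APC homolog Apc2 (1.85 ± 0.28, adjusted p = 4.06e-05), and none fell (median log2 fold change 0.23). Of 12 nuclear components 11 passed and 3 rose: the β-catenin partners Bcl9 (1.66 ± 0.16) and Bcl9l (1.59 ± 0.24) and the repressor Tcf7l1 (1.09 ± 0.18), with a median over the 11 of 0.77. No gene of either list was called in nascent RNA, where 11.9% of all genes tested were higher and 13.5% lower. Without both ESC replicate 3 libraries, 4 nuclear genes rose, with Tcf7l2 added (1.04 ± 0.24, adjusted p = 0.000884), and the intracellular count was again 1. In mRNA stability, 2 nuclear and 0 intracellular genes were called higher in the main fit, where 1.24% of all genes were, and 0 lower. Without those libraries the nuclear stability calls were Bcl9 (1.25 ± 0.16, adjusted p = 3.32e-05) and Bcl9l (1.17 ± 0.23, adjusted p = 0.00158). Among 26 other surface and secreted genes, 20 passed, 6 rose and 4 fell in total RNA (median 0.41), led by the metalloprotease Trabd2b (4.51 ± 0.57), the receptor Ror1 (3.27 ± 0.61), the polarity gene Prickle1 (3.11 ± 0.39) and Ror2, which fell (-1.72 ± 0.11). Thus 1 Ror receptor rose while the other fell, with Ror1 going from 0.630 ± 0.469 to 5.88 ± 2.58 and Ror2 from 45.8 ± 4.65 to 13.9 ± 1.06 CPM (SD, n = 3).

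Of 13 known targets of the pathway, 12 passed the filter, 4 rose and 1 fell in total RNA, beside 16.3% and 11.2% of all genes, and their median log2 fold change was 0.66. Myc (3.33 ± 0.35), Nkd2 (2.83 ± 0.23) and Nkd1 (2.39 ± 0.20) rose most and Cdx1 fell (-6.26 ± 1.05, adjusted p = 0.000114). In nascent RNA 2 targets rose and 1 fell, beside 11.9% and 13.5% of all genes. In mRNA stability 2 were called higher and 0 lower, beside 1.24% and 0.305%. Axin2, the feedback inhibitor often used as a readout, was not called in total RNA (35.0 ± 12.03 CPM in ESCs and 25.4 ± 3.73 in EpiLCs, -0.46 ± 0.27, adjusted p = 0.158) or in nascent RNA (-0.70 ± 0.26, under the fold threshold). Lef1 was not called either (1.05 ± 0.54, adjusted p = 0.101). Several targets were lowest by far in ESC replicate 3: ESC total libraries held 44.1, 39.5 and 21.3 CPM of Axin2, 4.64, 4.78 and 1.47 of Lef1, 6.90, 4.43 and 0.688 of Sp5, 2.55, 2.27 and 0.197 of T and 34.6, 27.9 and 13.1 of Cdx1. Nkd1, Nkd2 and Tcf7 were instead highest in that replicate. The same libraries held 2.03, 1.61 and 2.56 CPM of Nkd1, 1.68, 1.61 and 3.74 of Nkd2 and 25.03, 21.49 and 26.05 of Tcf7. Low values in ESC replicate 3 were thus not shared by all targets. With that replicate left out of both assays, Axin2 mRNA passed the adjusted p and stayed under the fold threshold (-0.74 ± 0.12, adjusted p = 2.19e-05), as did Lef1 (0.66 ± 0.20, adjusted p = 0.0059). Sp5 was then called lower (-1.34 ± 0.38, adjusted p = 0.0038), so that 4 targets rose and 2 fell in total RNA. In the same fit, mRNA stability was called higher for Nkd1 (1.62 ± 0.35) and Nkd2 (2.06 ± 0.31) and lower for Cdx1 (-2.73 ± 0.72). Nascent Nkd1 was not called there (0.88 ± 0.28), and nascent Nkd2 was just past the fold threshold (1.03 ± 0.22). The comparison without that replicate was added after the data were seen. The ligase Rnf43, a partner of ZNRF3, stayed under the filter with mean levels of 0.760 and 1.32 CPM.

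Markers of other cells that the cultures could hold were measured beside the ligands and Sfrp2. Of 7 primitive streak and mesendoderm genes, 3 passed the filter and 2 rose, T (2.35 ± 0.63) and Mixl1 (2.51 ± 0.33), with a summed level of 17.4 to 28.2 CPM in ESC and 21.4 to 33.6 in EpiLC total libraries. Of 9 fibroblast genes, 3 passed and 2 rose (Col1a2 and Dcn), and the sum was 3.88 to 4.83 CPM in ESCs and 15.1 to 20.1 in EpiLCs, while Postn and Lum were at or near 0 in all. Primitive endoderm genes (4 of 7 passed, 2 rose and 1 fell) summed to 5.10 to 11.99 CPM in ESCs and 18.6 to 21.3 in EpiLCs. Neural genes (4 of 6 passed, 1 rose) summed to 93.5 to 104 and 91.3 to 107 CPM, and trophoblast genes (3 of 5 passed, 1 fell) to 51.3 to 64.5 and 16.7 to 24.9. With both ESC replicate 3 libraries left out, the streak, neural and fibroblast counts were the same, 2 primitive endoderm genes were tested and both rose, and 1 trophoblast gene rose and 1 fell. Over all libraries, the streak sum in 4sU RNA was 21.7 to 28.6 CPM in ESCs and 47.3 to 103 in EpiLCs. In the same order, 4sU sums were 77.7 to 101 and 119 to 129 for neural genes. They were 14.5 to 16.6 and 31.2 to 42.4 for primitive endoderm and 2.045 to 2.98 and 5.18 to 6.57 for fibroblast genes. The trophoblast 4sU sums overlapped (67.5 to 82.4 and 49.2 to 86.2). The part of such cells in the changes of the members was not tested.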

How the data were processed

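Total and 4sU-labeled RNA was sequenced from 12 libraries of ESCs and EpiLCs, 3 per cell type and assay, and the labels gave each library its group. The authors deposited raw read counts per gene: reads were trimmed with cutadapt 1.14, aligned to mm10 with STAR 2.5.3a keeping unique alignments, and counted by strand over GENCODE M14 genes with featureCounts 1.5.3. Gene names came from GENCODE M21, which matched 51274 of 51467 identifiers. The 92 spike-in entries held 0 reads.

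The 14731 genes that reached 3 CPM in 3 or more libraries entered one limma-voom fit over all 4 groups, with no replicate block. TMM scaling was from edgeR 4.0.16, the fit from limma 3.58.1, in R 4.3.3. Contrasts were EpiLC minus ESC in total RNA (mRNA), in 4sU RNA (nascent RNA), and their difference (mRNA stability). The pipeline was tested on simulated data. Alternatives were DESeq2 1.42.0, edgeR quasi-likelihood, other scalings and filters, replicate blocks and leaving out libraries. CPM per kb used the summed exon length. Summed counts of 9300845 to 21975684 reads (total) and 3097693 to 5385644 (4sU) set the counting error. Intervals and floors cover that error only.

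Members and gene lists were chosen with earlier results of these data known. All members were named. From each pathway list the 4 called genes with the largest mRNA change were named, plus Axin2, Lef1, Rnf43, Sp5, Tcf7, Tcf7l1 and Tcf7l2. Marker genes behind counts of 5 or fewer were named after their values were seen.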

Additional observations from a re-analysis of the deposited data

Results flagged for a closer look

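Sfrp2 was singled out because its EpiLC minus ESC change differed between the assays by a test of the difference itself. The change in mRNA was 3.10 ± 0.16 and that in nascent RNA 1.89 ± 0.23, a difference of 1.21 ± 0.28 on the log2 scale (limma-voom adjusted p = 0.028). The log2 ratio of total to 4sU CPM of Sfrp2 was higher in 3 of 3 EpiLC pairs of same-numbered libraries than in any ESC pair, at 0.54 ± 0.07 against -0.69 ± 0.06. This ratio restates the values behind the tested difference and is no further support for it. With 1 library left out, the difference ranged from 1.04 to 1.31 and its adjusted p was past 0.05 in 9 of 12 fits.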

How the results depend on the processing

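The 36 called member changes kept their direction under each alternative run. Of their 396 values under alternatives other than leaving out 1 library, 388 kept the call and 8 lost it, and of 432 with 1 library left out, 418 kept it and 14 lost it. The alternative by adjusted p alone is the main fit without the fold threshold, so it kept all 36 by construction. A change in mRNA or nascent RNA also keeps all its own libraries when a library of the other assay is left out. Changes that were not called are outside this tally, and some of these turned: without both ESC replicate 3 libraries Fzd10 nascent RNA went from 0.11 to -0.37 (adjusted p = 0.0339) and Wnt5b mRNA from 0.22 to -0.08 (adjusted p = 0.577). Calls were gained by Fzd10 mRNA, Porcn nascent RNA and stability and Wnt7b nascent RNA without those libraries, by Fzd7 mRNA (1.04 with library totals alone) and, with 1 library left out, by Fzd7 and Wnt11 mRNA, Porcn stability and Fzd9 nascent RNA. The losses fell on Wnt7b mRNA (0.99 with DESeq2 and 0.97 without ESC total replicate 1), Fzd1 mRNA, Dkk3 nascent RNA, Sfrp2 mRNA stability and Fzd7 nascent RNA, which was 0.86 with the edgeR quasi-likelihood test, 0.93 with DESeq2 and 0.55 without ESC 4sU replicate 3. With no expression filter, which tests 50 members, 25 were higher in mRNA, 19 in nascent RNA and 0 in mRNA stability, where Sfrp2 had 1.10 (adjusted p = 0.11). With a filter of 1 CPM, Wnt6, Rspo3, Lgr5, Wnt3a, Wnt10b and Dkk1 were tested too, and Wnt3a was called lower and all but Dkk1 of the others higher in mRNA. By adjusted p alone, 2 members were higher in mRNA stability. Leaving out 1 library gave 0 to 1 member higher and 0 to 1 lower in mRNA stability, the lower one without ESC total replicate 3. Without both ESC replicate 3 libraries 1 member, Porcn, was lower in mRNA stability. The median relative stability of the members in EpiLCs was -0.136 with median-of-ratios scaling and 0.104 with the 1 CPM filter. The cause of these differences was not tested.

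Deviations of same-numbered total and 4sU libraries correlated at 0.163 to 0.408 in ESCs and 0.0234 to 0.0747 in EpiLCs, and those of same-numbered ESC and EpiLC libraries at -0.0775 to -0.009. By the study's methods, the RNA of labeled samples was split into total and 4sU parts, so libraries of the assays share samples. Of 12 libraries, 9 correlated best with their own number, but the labels do not state which libraries are pairs. The replicate block by number gave 14 members higher and 5 lower in mRNA and 10 and 5 in nascent RNA, where Fzd7 (0.96) was not called. The replicate block by culture, possible for mRNA stability only, gave 1 higher and 1 lower, the latter Porcn (-1.43, adjusted p = 0.00783). mRNA stability could not be fitted with each assay alone. The 4sU depth limits the ligands and antagonists with few reads.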
